A study of Homo sapiens with 16 samples.

Results

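The MYC, MAX and MXD network is a set of 9 transcription factor genes, chosen by name: MYC and MYCL, the shared partner MAX, the antagonists MXD1, MXI1, MXD3, MXD4 and MNT, and the MAX-like partner MLX. Each was found under its own symbol, so that 9 of the 20271 genes in the deposited table are described. The proteins carry a basic helix-loop-helix leucine zipper and bind DNA in pairs at the E-box CACGTG. MYC with MAX recruits coactivators and raises transcription of growth genes, whereas the MXD proteins and MNT take MAX away from MYC and recruit SIN3 corepressors to the same sites. In colon cancer cells MYC is a target of WNT and beta-catenin signalling, and p53 is known to oppose MYC in several cell types.

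The cells were HCT116, a human line from colon cancer that the labels give as p53 wild type. All 16 libraries came from cells that received siRNA for 3 days. The siRNA was CTR siRNA, p53 siRNA, iASPP siRNA or p53+iASPP siRNA, and each was used without nutlin and with 0.5 days of added nutlin, giving 8 groups of 2 libraries. Nutlin blocks MDM2 from binding p53 and so raises p53, and iASPP, encoded by PPP1R13L, is an inhibitor of p53. Values are FPKM, expression normalised for transcript length and library size, and pairs of values are replicate 1 and replicate 2. Where libraries of 2 groups are said to be separate or not to overlap, that is only a description. An exact test of 2 against 2 libraries cannot go below p = 0.333, and the share of all genes that separate was not counted. These are bulk samples, in which fewer cells of a kind and less RNA per cell cannot be told apart. The labels do not say that replicates came from separate cultures, so p-values measure only the spread between these libraries, which may be technical.

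PPP1R13L stood at 0.279 to 2.45 FPKM in the 8 libraries with iASPP siRNA and at 6.88 to 18.9 in the other 8. That target therefore separated the libraries as labelled. Replicate 2 was the deeper library throughout: relative depth ran from 3.68 to 7.67 there, against 0.824 to 1.33 in replicate 1. The pairs of p53 siRNA+nutlin, iASPP siRNA+nutlin and p53+iASPP siRNA+nutlin are called the 3 diverging pairs. Over genes at 100 FPKM or above they had a median absolute log2 difference between replicates of 0.18 to 0.272, against 0.0506 to 0.0693 in the 5 other pairs, called close pairs. That difference does not say which library of a pair departs, so results are also given without the replicate 1 libraries and without the replicate 2 libraries of these pairs. Among 7 colon epithelial markers EPCAM was at 138 to 261 FPKM and VIL1 at 0.222 or below, and CDX2 was at 1.43 to 2.45. The summed level of the 7, most of it from the keratin genes KRT8, KRT18 and KRT19, was 5530 to 5660 FPKM in CTR siRNA+nutlin and 4230 to 5290 in iASPP siRNA+nutlin. It was 3030 to 3840 in the other 6 groups, so it was highest where MXD3 was lowest, and its part in the results below was not tested. Of 9 markers of immune, endothelial and fibroblast cells, CD3E was at 0 in all libraries and 8 reached at most 1.51 FPKM, CD68 being the exception at 0.745 to 7.17. The summed level of the 9 was 3.43 to 5.95 FPKM in CTR siRNA, 5.36 to 5.49 in p53 siRNA, 1.87 to 3.81 in iASPP siRNA and 3.41 to 5.88 in p53+iASPP siRNA. In the nutlin groups it was 1.09 to 2.68, 4.78 to 4.84, 1.76 to 3.7 and 6.64 to 8.58 in the same order. It was thus higher with p53 siRNA in nutlin-treated cells, and its part in the results below was not tested.

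The network was dominated by MYC. Mean FPKM over the 16 libraries was 163 for MYC, above 97.5% of genes. MAX followed at 27.3, MLX at 22.1 and MXI1 at 19.1, and MXD3 and MXD4 were lower at 5.07 and 4.87. MYCL and MNT were each at 1.31, and MXD1 was at 0.643. The test took genes averaging 1 FPKM or more, which left out MXD1 and kept the other 8. From its highest to its lowest library MXD3 differed 17.7-fold, MYCL 12.2-fold and MXD4 7.4-fold, whereas MYC differed 1.99-fold, MAX 1.58-fold and MLX 1.6-fold. The antagonist genes MXD3 and MXD4 thus spanned a wider relative range than MYC, MAX or MLX. MYCL varied too, at a level where single reads may count. The low end of MXD3, at 0.638 to 1.18 FPKM in CTR siRNA+nutlin and iASPP siRNA+nutlin, was near that level, so its fold range may also rest on few reads.

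**Figure D1:**
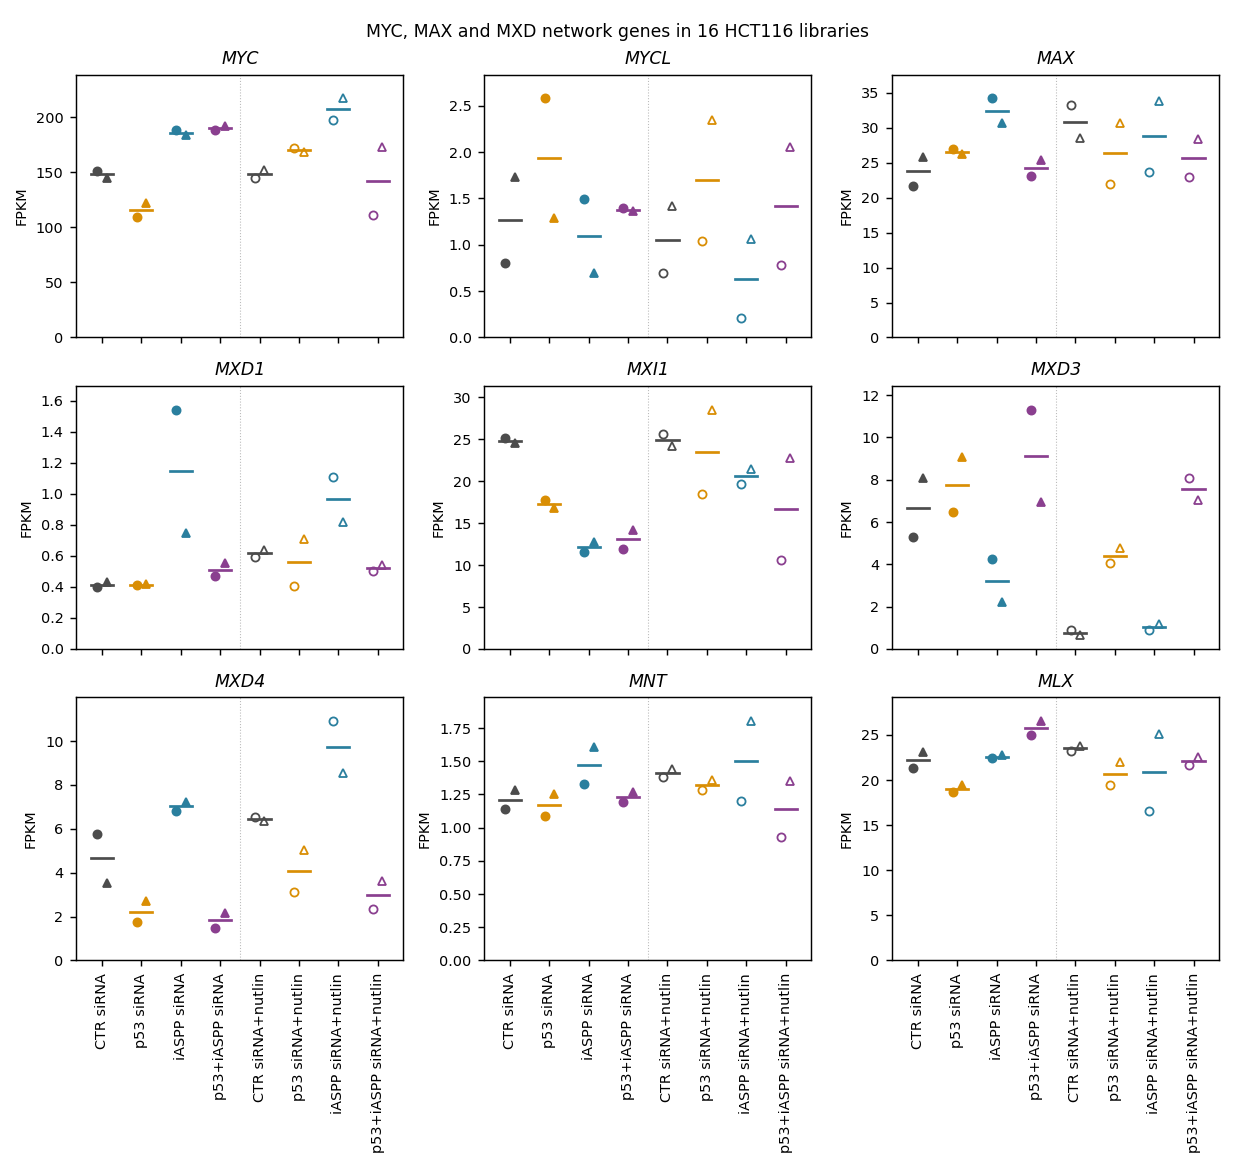
FPKM of each network gene in each of the 8 groups, with 1 panel per gene and its own axis starting at 0. Circles are replicate 1, triangles replicate 2, bars the mean of both, and open symbols the nutlin groups. MXD3 is lowest in the nutlin groups without p53 siRNA, at 0.638 to 1.18 FPKM, and MXD4 is at 1.47 to 5.02 FPKM in the p53 siRNA groups.

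The calls in single backgrounds and in the p53 siRNA average fell on MXD3 and MXD4, apart from 1 on MYC. Their promoters are shown because the members are themselves E-box binding factors. The windows run from 250 bases before to 50 bases after the RefSeq start on GRCh38.p14, 5′ to 3′ on the gene's strand, the minus strand for both. Capitals mark CACGTG, the related CACGCG, or an E2F-type 7-mer, each on either strand. The E2F-type forms searched were TTCCCGC, then TTGGCGC as the next form and TTCGCGC as the last.
MXD3, chr5:177312703-177313002: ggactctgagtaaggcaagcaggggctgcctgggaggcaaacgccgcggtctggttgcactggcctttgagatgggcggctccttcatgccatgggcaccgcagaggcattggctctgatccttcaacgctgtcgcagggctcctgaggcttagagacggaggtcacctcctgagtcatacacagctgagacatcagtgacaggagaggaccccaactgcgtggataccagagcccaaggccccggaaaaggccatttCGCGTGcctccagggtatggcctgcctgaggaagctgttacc
MXD4, chr4:2262060-2262359: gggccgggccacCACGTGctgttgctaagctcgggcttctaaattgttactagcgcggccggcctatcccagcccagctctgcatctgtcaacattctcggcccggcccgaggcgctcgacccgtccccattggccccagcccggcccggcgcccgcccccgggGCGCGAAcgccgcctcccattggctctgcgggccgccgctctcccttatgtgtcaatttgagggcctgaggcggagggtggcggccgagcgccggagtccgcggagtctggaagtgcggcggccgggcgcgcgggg
In the MXD4 window CACGTG began at position -238 and the E2F-type match at -86, counted from the start. In the MXD3 window the capitals at position 9 after the start are CACGCG read on the other strand. Promoter windows were at hand for 8 members and not used here for MYC, and CACGTG also lay at -193 in the MNT window and at -50 in the MLX window. Thus 3 of 11 member windows held CACGTG, which 7.26% of all 35116 promoters of that length hold. CACGCG is in 11.4% of all promoters and the E2F-type 7-mers in 11%. TTTGAA, the core of the cell-cycle element CHR, searched on both strands like the others, was in 0 of the 11 windows and in 15.2% of all promoters. The p53 half-site was also in 0 windows, against 6.63% of all promoters. A match is a description of letters and not of a bound site.

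MXD3 encodes an MXD repressor whose mouse counterpart is known for its expression in S phase. The gene lies on chromosome 5 from 177301461 to 177312757 on the minus strand (GRCh38). MXD3 was at 5.28 and 8.08 FPKM with CTR siRNA and at 0.888 and 0.638 with CTR siRNA+nutlin. Both nutlin libraries lay far below both control libraries, and the ratio of means was 0.114. MXD3 fell by 2.10 ± 0.28 (difference of log2(FPKM + 1) ± SE, limma, adjusted p = 3.0e-04). It was the 1 member called of 8 tested in that comparison, in which 26.8% of all genes tested were called, 5.87% higher and 21.0% lower. The median change of all genes there was -0.20, and median-of-ratios scaling moved it by 0.21. Of all calls 21.9% were higher, and 48% with that scaling, under which MXD3 was still called lower.

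With p53 siRNA the nutlin values of MXD3 were 4.04 and 4.77 FPKM, against 6.46 and 9.08 without nutlin. The libraries did not overlap, and the change of -0.69 ± 0.28 missed the threshold (adjusted p = 0.286). Of 8 members 0 were called in that comparison and 3 had an unadjusted p under 0.05, with 0.225% of all genes called. The difference between these effects of nutlin, with and without p53 siRNA, passed narrowly at 1.42 ± 0.40 for MXD3 (limma interaction, adjusted p = 0.0455). MXD3 was again the 1 member called, where 9.75% of all genes were called and 7.65% were called higher. That is 78.5% of the calls, and 59.1% with median-of-ratios scaling. This call was lost when any 1 of the 8 libraries of CTR siRNA, p53 siRNA, CTR siRNA+nutlin or p53 siRNA+nutlin was left out (adjusted p 0.0545 to 0.156). The replicate block ended it too (adjusted p = 0.0552), as did every other alternative except the smaller pseudocount, with adjusted p up to 0.597.

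Set side by side within nutlin-treated cells, MXD3 was higher with p53 siRNA than with CTR siRNA. The change was 1.62 ± 0.28 (limma, adjusted p = 0.00204) and the ratio of means 5.77. This was the 1 call among 8 members, with 22.5% of all genes called, 17.2% higher and 5.29% lower. Of all calls there 76.5% were higher, and 51.7% with median-of-ratios scaling. Both MXD3 calls, for nutlin in CTR siRNA and for p53 siRNA with nutlin, were kept in each fit that left out 1 library. Averaging each close pair into 1 sample, an alternative chosen after seeing the data, ended both (adjusted p = 0.0728 and 0.0636).

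In cells with iASPP siRNA, MXD3 was at 4.24 and 2.23 FPKM without nutlin and at 0.906 and 1.18 with it. The groups did not overlap, and the change of -1.01 ± 0.28 did not pass (adjusted p = 0.0620). There 0 of 8 members were called and 2 had an unadjusted p under 0.05, with 5.21% of all genes called. With both siRNAs MXD3 was at 11.3 and 6.95 FPKM without nutlin and at 8.08 and 7.06 with it, and these groups overlapped. That comparison called 0 members and 0% of all genes, with 1 member under an unadjusted p of 0.05. From highest to lowest mean, the order for MXD3 was p53+iASPP siRNA, p53 siRNA, p53+iASPP siRNA+nutlin, CTR siRNA, p53 siRNA+nutlin, iASPP siRNA, iASPP siRNA+nutlin and CTR siRNA+nutlin. Only 3 of the 7 pairs of neighbours in that order were separate in all their libraries.

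MXD3 shares sequence with other genes. Of its 5154 exon bases in GENCODE release 29, 1158 (22.5%) also belong to exons of PRELID1 on the opposite strand and 926 (18%) to exons of RAB24 on its own strand. Reads in bases shared with RAB24 cannot be told apart by strand. Whether reads were counted by strand is not given in the sources used here, and without strand those shared with PRELID1 cannot be told apart either. PRELID1, which encodes a mitochondrial lipid transfer protein, was at 198 and 197 FPKM with CTR siRNA and at 106 and 126 with CTR siRNA+nutlin. PRELID1 fell by 0.76 ± 0.17 with nutlin (limma, adjusted p = 0.00683) and rose by 0.71 ± 0.17 with p53 siRNA in nutlin-treated cells (adjusted p = 0.0126). In these 2 comparisons its changes had the sign of those of MXD3 and were smaller on the log2 scale. With iASPP siRNA without nutlin the signs differed and neither change passed, PRELID1 standing at 227 and 206 FPKM (0.13 ± 0.17, adjusted p = 0.662) and MXD3 lower than in CTR siRNA (-0.88 ± 0.28, adjusted p = 0.0753). Over the 8 group means the 2 genes had a Pearson r of 0.93, a description of points that share libraries. RAB24, at a mean of 2.55 FPKM, was called in neither comparison (adjusted p = 0.362 and 0.704). The part of these neighbours in the MXD3 values was not tested, and where MXD3 was lowest, at 0.638 FPKM, PRELID1 was at 126.

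MXD4, another MXD repressor, showed the other pattern. It lies on chromosome 4 from 2247432 to 2262294 on the minus strand. In cells without nutlin MXD4 was at 5.78 and 3.54 FPKM with CTR siRNA and at 1.74 and 2.72 with p53 siRNA. The iASPP siRNA libraries were at 6.83 and 7.23, and those of p53+iASPP siRNA at 1.47 and 2.17. Each p53 siRNA group lay wholly below its partner without p53 siRNA. With nutlin the MXD4 values were 6.53 and 6.36 for CTR siRNA, 3.14 and 5.02 for p53 siRNA, 10.9 and 8.53 for iASPP siRNA, and 2.34 and 3.64 for both. The same separation held there.

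Over all groups MXD4 was at 1.47 to 5.02 FPKM (median 2.53, n = 8 libraries) with p53 siRNA and at 3.54 to 10.9 (median 6.68, n = 8 libraries) without it. Against CTR siRNA the change did not pass: it was -0.80 ± 0.26 without nutlin (limma, adjusted p = 0.259) and -0.58 ± 0.26 with nutlin (adjusted p = 0.137). In the comparison without nutlin 0 of 8 members were called and 2 had an unadjusted p under 0.05, with 0.0375% of all genes called.

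In cells with iASPP siRNA the effect of p53 siRNA was read in 2 comparisons added after the values of the members had been seen. Without nutlin MXD4 fell by 1.52 ± 0.26 (limma, adjusted p = 0.0275), with a ratio of means of 0.259. It was the 1 member called of 8, with 0.975% of all genes called and 0.553% called lower. Of all calls 43.3% were higher, and 31.2% with median-of-ratios scaling. Leaving out any 1 of the 4 libraries ended that call (adjusted p 0.110 to 0.287), as did dropping the filter (0.0564) and averaging close pairs (1.00). MXD3 was higher in both libraries there (1.26 ± 0.28) and did not pass (adjusted p = 0.0618).

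With nutlin, p53 siRNA in cells with iASPP siRNA gave 3 calls among 8 members, where 15.6% of all genes were called, 10.8% higher and 4.82% lower. The share of calls that were higher was 69.1%, and 58.8% with median-of-ratios scaling. MXD3 rose by 2.07 ± 0.28 (limma, adjusted p = 0.00111), MXD4 fell by 1.43 ± 0.26 (adjusted p = 0.00464) and MYC fell by 0.57 ± 0.16 (adjusted p = 0.0356). Both groups are diverging pairs, and without their replicate 1 libraries the 3 calls were lost (adjusted p = 0.0522, 0.121 and 0.0767), as they were with close pairs averaged (0.0660, 0.0961 and 0.290). The MXD4 call was also lost without p53+iASPP siRNA+nutlin replicate 1 alone (adjusted p = 0.0528). The MYC call was kept only without p53+iASPP siRNA+nutlin replicate 2 among the 4 libraries, the adjusted p reaching 0.195 without its replicate 1, where the change was -0.25, and it was lost with no filter (0.0617).

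Averaged over the 4 backgrounds in the same fit, again a comparison added after the values had been seen, MXD4 fell by 1.08 ± 0.13 with p53 siRNA (limma, adjusted p = 1.4e-04). In the same averaged comparison MXD3 rose by 1.29 ± 0.14 (adjusted p = 7.8e-05). For MXD3 the average pooled unlike backgrounds. In cells without nutlin or iASPP siRNA the libraries overlapped, at 5.28 and 8.08 FPKM with CTR siRNA and 6.46 and 9.08 with p53 siRNA. In single backgrounds MXD3 was called for p53 siRNA only with nutlin. MXD4 and MXD3 were the 2 members called of 8, where 31.2% of all genes were called, 22.7% higher and 8.55% lower. The higher share of the calls was 72.6%, and 52.2% with median-of-ratios scaling. Both calls were kept in all 16 fits without 1 library and in all 7 other alternatives, the highest adjusted p being 0.0494 for MXD4 and 0.0318 for MXD3, each with close pairs averaged.

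Nutlin groups had more MXD4 than their untreated partners in all 4 siRNA backgrounds, with ratios of means of 1.38, 1.83, 1.38 and 1.65 for CTR, p53, iASPP and p53+iASPP siRNA. In each background both nutlin libraries lay above both untreated ones, a separation whose share over all genes was not counted. None of the 4 changes passed alone, at adjusted p of 0.258 to 0.705 by limma. Averaged over the backgrounds, MXD4 rose by 0.49 ± 0.13 with nutlin (limma, adjusted p = 0.0182) and MXD3 fell by 1.00 ± 0.14 (adjusted p = 4.7e-04). These were the 2 members called in that added comparison, with 25.6% of all genes called, 6.85% higher and 18.7% lower. The higher share of the calls was 26.8%, and 47.8% with median-of-ratios scaling. With close pairs averaged both were lost (adjusted p = 0.281 for MXD4 and 0.0712 for MXD3), and the MXD4 call was also lost without the replicate 2 libraries of the 3 diverging pairs (adjusted p = 0.0504). Across the 8 group means MXD3 and MXD4 ran in opposite directions, with a Pearson r of -0.87 that describes these means and carries no test.

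**Figure D2:**
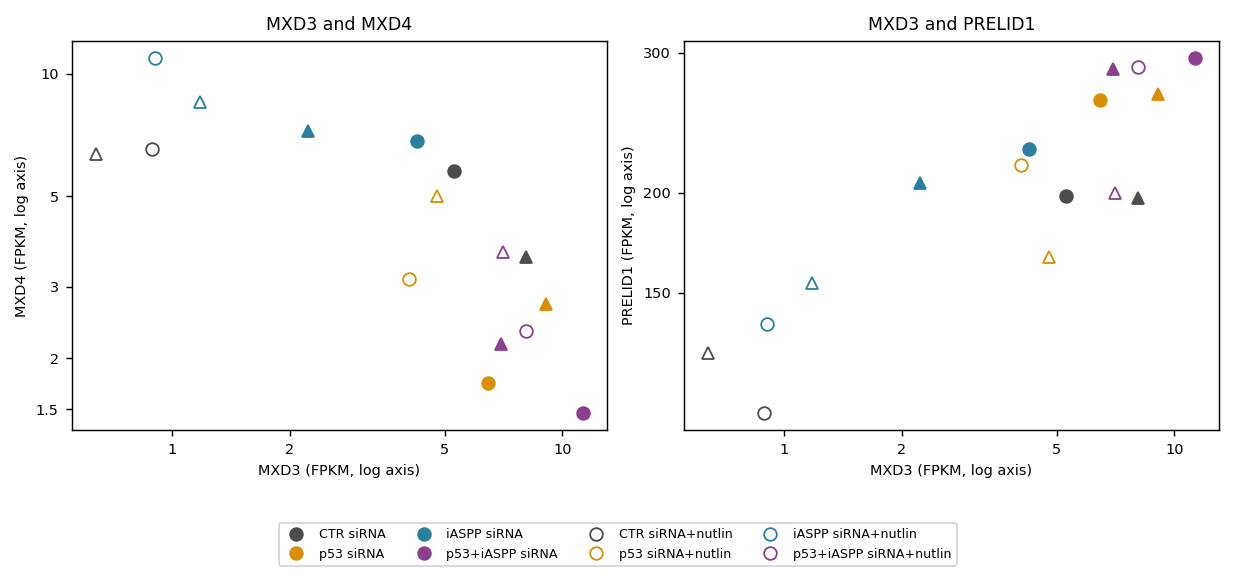
MXD4 (left) and PRELID1 (right) against MXD3 in the 16 libraries, in FPKM on log axes. Circles are replicate 1, triangles replicate 2, and open symbols the nutlin groups. Libraries with p53 siRNA lie at 4.04 to 11.3 FPKM of MXD3 and at 1.47 to 5.02 of MXD4. Those without it lie at 0.638 to 8.08 of MXD3 and 3.54 to 10.9 of MXD4, so both ranges overlap. PRELID1 is high where MXD3 is high.

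MYC itself, on chromosome 8 from 127735434 to 127741434, changed little with nutlin in cells that had CTR siRNA. MYC was at 151 and 145 FPKM without nutlin and at 145 and 152 with it, and the groups overlapped. The change was 0.00 ± 0.16 with a 95% interval of -0.35 to 0.36. With p53 siRNA MYC was at 109 and 122 FPKM, the lowest group, and with p53 siRNA+nutlin at 172 and 168. Neither p53 siRNA without nutlin (-0.36 ± 0.16, limma adjusted p = 0.379) nor nutlin in those cells (0.56 ± 0.16, adjusted p = 0.156) passed, though the libraries did not overlap in either case. With p53+iASPP siRNA MYC was at 188 and 192 FPKM, and with nutlin added at 111 and 173. That last pair was 1 of the 3 diverging pairs and had the widest spread of any MYC group, with an SD of 43.9 FPKM.

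With iASPP siRNA MYC was at 188 and 184 FPKM without nutlin and at 197 and 217 with it, the highest group mean. Both groups lay above their CTR siRNA partners. The change without nutlin was 0.33 ± 0.16 (limma, adjusted p = 0.218), and with nutlin it was 0.47 ± 0.16 (adjusted p = 0.186). In p53-depleted cells without nutlin MYC was 1.64 times as high with iASPP siRNA, a change of 0.71 ± 0.16 that did not pass (adjusted p = 0.0643) and did so with median-of-ratios scaling (0.72, adjusted p = 0.0291). In p53-depleted cells with nutlin the change was -0.29 ± 0.16 and the libraries overlapped. Members called numbered 0 of 8 in each of these 4 comparisons, with 3, 1, 2 and 1 under an unadjusted p of 0.05. The share of all genes called was 7.86% without nutlin, of which 2.75% higher and 5.11% lower (35% of calls higher, and 45.7% with median-of-ratios scaling), 0.769% with nutlin, 0.947% in p53-depleted cells and 0.00938% in p53-depleted cells with nutlin.

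Averaged over the 4 backgrounds, again a comparison added after the values were seen, MYC rose by 0.31 ± 0.08 with iASPP siRNA (limma, adjusted p = 0.0365). MXI1 fell by 0.54 ± 0.14 (adjusted p = 0.0342). These were 2 of 8 members, against 9.49% of all genes, 4.86% higher and 4.63% lower. The calls were fragile, and each was kept in 4 of 16 fits that left out 1 library. That of MYC was kept only without a library of iASPP siRNA+nutlin or of p53+iASPP siRNA+nutlin. That of MXI1 was kept only without p53 siRNA+nutlin replicate 1, iASPP siRNA+nutlin replicate 2 or either library of p53+iASPP siRNA+nutlin. With close pairs averaged the adjusted p were 0.736 and 0.722, and with no filter on level 0.0631 and 0.0678.

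MXI1, also known as MXD2, was the most abundant antagonist and lies on chromosome 10 from 110207605 to 110287365. In cells without nutlin MXI1 was at 25.2 and 24.5 FPKM in CTR siRNA, 17.7 and 16.8 in p53 siRNA, 11.6 and 12.7 in iASPP siRNA and 11.9 and 14.2 in p53+iASPP siRNA. The 3 depleted groups lay below the control group without overlap. For iASPP siRNA without nutlin the change was -0.98 ± 0.28 with an adjusted p of 0.0527 by limma, just above the threshold. With nutlin MXI1 was at 25.6 and 24.2 FPKM for CTR siRNA, 18.5 and 28.5 for p53 siRNA, 19.7 and 21.5 for iASPP siRNA, and 10.6 and 22.8 for both. The nutlin groups with p53 or both siRNAs were split, replicate 2 being the higher of the pair in each. Nutlin in cells with iASPP siRNA gave a change of 0.72 ± 0.28 that did not pass (adjusted p = 0.162).

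**Figure D3:**
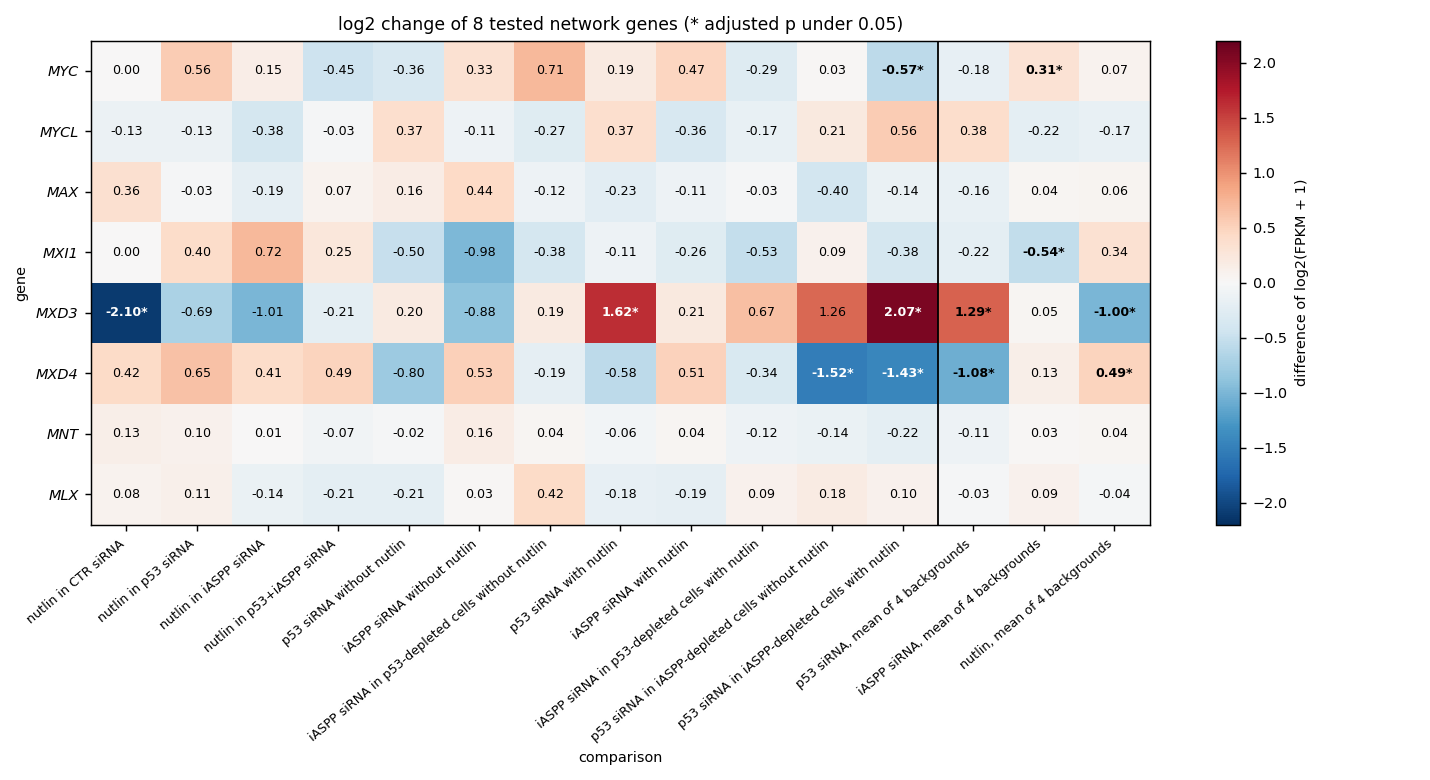
Difference of log2(FPKM + 1) of the 8 tested network genes in 12 comparisons of 2 groups and, right of the line, in 3 averaged over 4 backgrounds. Red is higher and blue lower, and asterisks mark an adjusted p under 0.05 by limma. Left of the line MXD3 carries 3 calls, at -2.10, 1.62 and 2.07, MXD4 carries 2, at -1.52 and -1.43, and MYC carries 1, at -0.57.

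MXD1, the founding MXD gene, had the lowest mean level of the set. It was at 0.397 and 0.429 FPKM in CTR siRNA, 0.413 and 0.417 in p53 siRNA, 1.54 and 0.75 in iASPP siRNA and 0.47 and 0.551 in p53+iASPP siRNA. Both iASPP siRNA libraries were above both controls, with a ratio of means of 2.77. With nutlin it was at 0.594 and 0.637 for CTR siRNA, 0.407 and 0.71 for p53 siRNA, 1.11 and 0.816 for iASPP siRNA, and 0.503 and 0.544 for both. The 4 libraries with iASPP siRNA alone were the 4 highest. When the filter on level was dropped, the change with iASPP siRNA without nutlin was 0.58 ± 0.16, which did not pass (limma, adjusted p = 0.0787). Of its 6351 exon bases 237 (3.73%) are shared with SNRNP27, which fell with iASPP siRNA without nutlin by 1.00 ± 0.17 (adjusted p = 0.00914).

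MNT, the broadly expressed antagonist of MYC, was among the steadiest members. MNT ranged from 0.929 to 1.8 FPKM, both extremes being nutlin groups with iASPP siRNA. Group means were between 1.14 and 1.5 FPKM, and MNT was called in none of the 19 comparisons, those averaged included. MYCL, an activator first found in lung cancer, was at 0.801 and 1.73 FPKM with CTR siRNA and at 0.212 and 1.06 with iASPP siRNA+nutlin, its lowest group. In replicate 1 its value times the library's relative depth was 1 to 10.3 times the lowest, departing from whole multiples by at most 0.32. The same check for MXD1 gave departures of up to 0.41, and relative depth was itself read from such steps. MYCL levels in these libraries may therefore rest on few reads, and 0 of its 7 neighbouring group pairs were separate.

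MAX, the obligate partner of MYC and of the antagonists, ranged from 21.7 to 34.2 FPKM. It was at 21.7 and 25.8 in CTR siRNA, 34.2 and 30.7 in iASPP siRNA and 33.2 and 28.5 in CTR siRNA+nutlin. Both of the latter groups were above the control group without overlap, with changes of 0.44 and 0.36 that did not pass. With median-of-ratios scaling nutlin in CTR siRNA gave 0.60 for MAX and passed (limma, adjusted p = 0.0264). None of the 7 pairs of neighbours in the order of MAX levels was separate.

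MLX pairs with MXD1, MXD4 and MNT and with the glucose-sensing factors MondoA, encoded by MLXIP, and ChREBP, encoded by MLXIPL. MLX was at 21.3 and 23.1 FPKM in CTR siRNA, 18.7 and 19.4 in p53 siRNA, 22.4 and 22.8 in iASPP siRNA and 25 and 26.5 in p53+iASPP siRNA. The group with both siRNAs was the highest and that with p53 siRNA the lowest, and the change between them, 0.42, did not pass. With nutlin MLX ranged from 16.6 to 25.1 FPKM, both being libraries of iASPP siRNA+nutlin. Without replicate 2 of that group, MLX was called lower for nutlin in iASPP siRNA (-0.42, limma adjusted p = 0.0305) and for iASPP siRNA with nutlin (-0.47, adjusted p = 0.0447). MLX shares 770 of 4259 exon bases (18.1%) with PSMC3IP, a meiotic recombination factor gene on the opposite strand. PSMC3IP fell by 2.72 ± 0.28 with nutlin in CTR siRNA (adjusted p = 5.7e-05), where MLX was at 23.2 and 23.8 FPKM.

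The other 3 interactions called 0 of 8 members. These were nutlin with iASPP siRNA (1.02% of all genes called, 1 member under an unadjusted p of 0.05), p53 with iASPP siRNA without nutlin (0.0281%, 1 member) and the same with nutlin (0%, 2 members). For MYC the last interaction was -0.76 ± 0.23 (limma, adjusted p = 0.639). Without p53+iASPP siRNA+nutlin replicate 2 it was -1.08 and passed (adjusted p = 0.0346).

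The balance of MYC mRNA against that of its antagonists was described by the ratio of MYC to the sum of MXD1, MXI1, MXD3, MXD4 and MNT, all in FPKM and therefore per length. Protein levels are not in these data, so the ratio does not give the balance of the proteins that compete for MAX. Without nutlin the ratio was 4 and 3.84 in CTR siRNA, 3.99 and 4.03 in p53 siRNA, 7.37 and 7.52 in iASPP siRNA and 7.14 and 7.63 in p53+iASPP siRNA. The 4 iASPP siRNA libraries stood above the other 4. With nutlin the ratio was 4.13 and 4.58 in CTR siRNA, 6.29 and 4.16 in p53 siRNA, 5.83 and 6.42 in iASPP siRNA and 4.96 and 4.9 in p53+iASPP siRNA. There the iASPP siRNA libraries overlapped those of p53 siRNA, whose first library was at 6.29. In p53-depleted cells with nutlin the mean ratio was 5.23 with p53 siRNA and 4.93 with both siRNAs, so it was not higher with iASPP siRNA added. Without nutlin those means were 4.01 and 7.39. The ratio was described only and was not tested. MXI1 made up 48.6% of the summed antagonists with iASPP siRNA and 73% with CTR siRNA+nutlin. MXD3 made up 17.7% with CTR siRNA, 2.22% with CTR siRNA+nutlin and 35.3% with both siRNAs. MXD4 made up 28.1% with iASPP siRNA and 7.1% with both siRNAs. The make-up of the antagonists thus shifted between groups even where their sum was close, as at 25 FPKM with iASPP siRNA and 25.7 with both siRNAs.

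**Figure D4:**
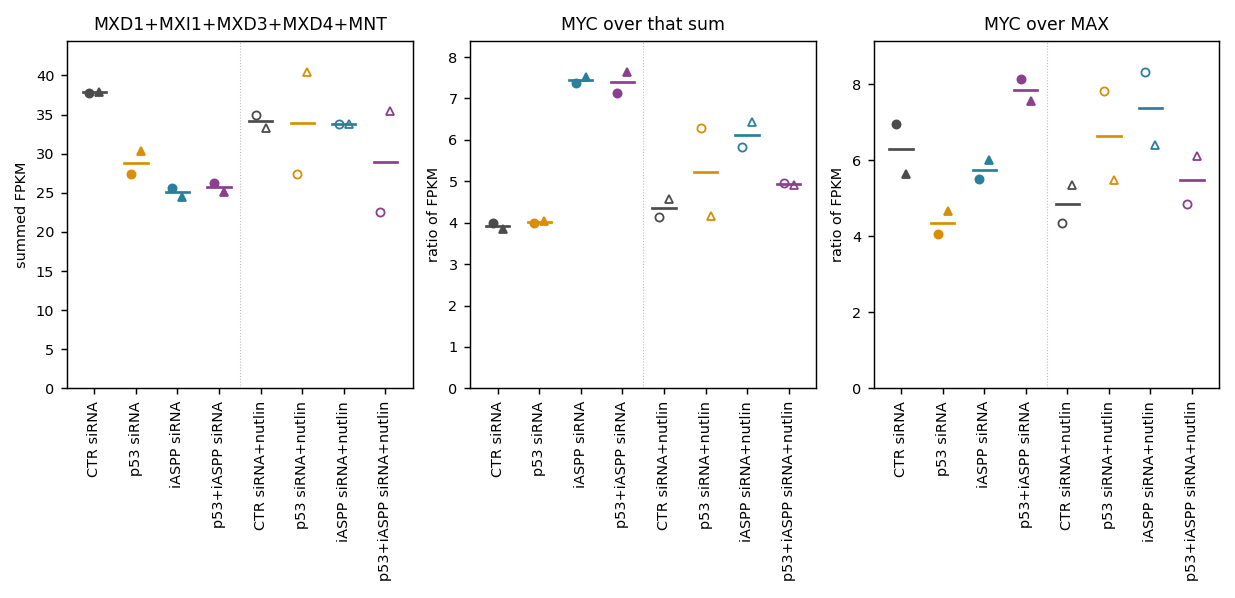
Summed FPKM of the 5 antagonist genes (left), MYC over that sum (middle) and MYC over MAX (right) in the 8 groups, with axes from 0. Circles are replicate 1, triangles replicate 2, bars the mean of both libraries, and open symbols the nutlin groups. Without nutlin MYC over the sum is 7.14 to 7.63 in the 4 libraries with iASPP siRNA and 3.84 to 4.03 in the other 4. With nutlin, libraries with and without iASPP siRNA overlap.

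Partners outside the set were read from a list of 4. MYCN, the third MYC family gene, was listed at 0 in all 16 libraries. MGA, MLXIP and MLXIPL were tested. MLXIP was at 3.08 and 3.36 FPKM with CTR siRNA and at 5.4 and 6.23 with iASPP siRNA, and it rose by 0.69 ± 0.16 (limma, adjusted p = 0.0255). The list counted 1 of 3 higher there and 0 lower, where 2.75% of all genes were called higher. The MondoA targets TXNIP and ARRDC4 had means under 1 FPKM, with TXNIP at 0 in 14 libraries and ARRDC4 at 0.298 to 2.01 FPKM.

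Genes of the MYC pathway were read from lists written with earlier results of these data known. Of 33 genes activated by MYC, 1 was higher and 10 were lower with nutlin in CTR siRNA, with a list median of -0.36 beside -0.20 for all genes. Of all genes 5.87% were called higher and 21.0% lower there. With median-of-ratios scaling the list count was 3 higher and 3 lower and the median -0.14. The direction of the list count in that comparison thus depended on the scaling. LDHA, which makes lactate from pyruvate, was at 1140 and 1140 FPKM without nutlin and at 487 and 487 with it, and fell by 1.22 ± 0.07 (limma, adjusted p = 3.8e-06). ODC1, the first enzyme of polyamine synthesis, fell by 0.81 ± 0.24 (adjusted p = 0.0288) and UBTF, a factor for ribosomal RNA genes, by 0.73 ± 0.19 (adjusted p = 0.0152). With median-of-ratios scaling LDHA still passed (-0.98, adjusted p = 1.6e-05), while ODC1 and UBTF did not (adjusted p = 0.134 and 0.0794). NME1, a nucleoside diphosphate kinase gene named here after its values were seen, was the member that rose (0.67 ± 0.14, adjusted p = 0.00551). MYC mRNA in the same libraries was within 145 to 152 FPKM. With p53 siRNA in nutlin-treated cells 4 of the 33 were higher and 1 was lower, with a list median of 0.29 beside 0.19 for all genes, and with median-of-ratios scaling 1 was higher and 1 lower. LDHA rose by 1.01 ± 0.07 there, and NME1 fell by 0.72 ± 0.14 (adjusted p = 0.00446). With iASPP siRNA without nutlin 3 were higher and 2 lower (5 and 2 with median-of-ratios scaling), with a list median of -0.08 beside -0.09 for all genes. Of all genes 7.86% were called there, 2.75% higher and 5.11% lower. Among the 3 was SLC19A1, the folate carrier (0.83 ± 0.19, adjusted p = 0.0269). In the nutlin average over 4 backgrounds 0 of the 33 were higher and 20 lower, beside 6.85% and 18.7% of all genes. The list median was -0.25 beside -0.07. In the p53 siRNA average 17 were higher and 1 lower, beside 22.7% and 8.55%, with a list median of 0.25 beside 0.09. In the iASPP siRNA average 2 were higher and 1 lower, beside 4.86% and 4.63%. These averages were added after the values were seen, and their scaled list counts are not given here.

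Of 12 genes that control MYC protein, 0 were higher and 6 lower with nutlin in CTR siRNA, and 5 were higher and 0 lower with p53 siRNA in nutlin-treated cells. Of all genes 5.87% were called higher and 21.0% lower in the first comparison, and 17.2% higher and 5.29% lower in the second. With median-of-ratios scaling the list counts were 5 lower and 5 higher, with 0 in the other direction in each. The share of all genes called with that scaling is not given here, so the scaled counts alone are not a result about the list. The mitotic kinases PLK1 and AURKA and KIAA1524, also called CIP2A, an inhibitor of the phosphatase PP2A, moved most. AURKA was at 32.6 and 33.2 FPKM with CTR siRNA, at 1.89 and 1.98 with nutlin, and at 40 and 30.9 with p53 siRNA+nutlin. PLK1 fell by 4.46 ± 0.56 with nutlin (limma, adjusted p = 2.0e-04), AURKA by 3.53 ± 0.23 (adjusted p = 7.7e-06) and KIAA1524 by 2.46 ± 0.22 (adjusted p = 2.6e-05). PLK1 and AURKA act in mitosis as well as on MYC. Of 18 cofactors and corepressors, 1 was higher and 6 were lower with nutlin, and 5 were higher and 0 lower with p53 siRNA in nutlin-treated cells. The same shares of all genes stand beside these counts. With median-of-ratios scaling the counts were 1 and 2, and 3 and 1. SIN3A, the corepressor that MXD proteins bind, fell by 0.95 ± 0.25 with nutlin (adjusted p = 0.0161), and ZBTB17, which encodes the MYC partner MIZ1, rose by 0.74 ± 0.23 (adjusted p = 0.0385).

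Among 4 genes listed as repressed by MYC through MIZ1, a route not tested here, 2 were higher and 0 lower with nutlin in CTR siRNA. These were CDKN1A, the p21 gene (4.41 ± 0.38, limma adjusted p = 2.4e-05), and GADD45A (1.80 ± 0.25, adjusted p = 4.4e-04), both also well-known p53 targets. With iASPP siRNA without nutlin the list split. CDKN1A rose by 2.49 ± 0.38 (limma, adjusted p = 0.00647) and NDRG1 fell by 2.44 ± 0.36 (adjusted p = 0.00597), where 2.75% of all genes were called higher and 5.11% lower. NDRG1 was also lower with iASPP siRNA in nutlin-treated cells (-1.79 ± 0.36, adjusted p = 0.0497), where 0.769% of all genes were called. Of 10 targets of WNT and beta-catenin, 5 could be tested and 0 were called with nutlin in CTR siRNA or with p53 siRNA in nutlin-treated cells. The closest were TCF7 with nutlin (-0.45, limma adjusted p = 0.0561) and AXIN2 with p53 siRNA (0.50, adjusted p = 0.143). In the p53 siRNA and nutlin averages over 4 backgrounds 1 of the 5 passed in each. AXIN2 rose by 0.44 ± 0.12 with p53 siRNA (limma, adjusted p = 0.0140) and TCF7 fell by 0.29 ± 0.08 with nutlin (adjusted p = 0.0211). In the iASPP siRNA average 0 of the 5 passed. The list counts for nutlin in CTR siRNA stand beside 26.8% of all genes called, and those for p53 siRNA with nutlin beside 22.5%. The averages for p53 siRNA, nutlin and iASPP siRNA stand beside 31.2%, 25.6% and 9.49%.

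The genes most like each member over the 8 group means, among genes averaging 5 FPKM or more, were found by Pearson r of log2(FPKM + 1). For MXD3 they were XRCC6 (0.995), CCT5 (0.993) and FUBP1 (0.993). For MXD4 they were S100A4 (0.992), TSPYL1 (0.979) and TM7SF3 (0.969). MYC was most like APP (0.945), BIK (0.94) and ELF1 (0.933), and MXI1 was most like FBXW11 (0.976). These values describe 8 means from shared libraries and were picked as the highest of many genes. XRCC6, a DNA end-binding protein gene, spanned group means of 212 to 392 FPKM, a narrower relative range than that of MXD3.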

How the data were processed

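Messenger RNA of HCT116 cells was sequenced in 16 libraries, and the authors deposited FPKM for each. The build hg38 (GRCh38) and edgeR are named, per the submitters' processing notes. Not given in the sources used here are the aligner, the read counter, the strand setting and the annotation. Raw counts were not used, absolute depth is unknown, and relative depth was read from the step size of values under 1 FPKM (log2 windows of 0.01).

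The 10662 genes averaging 1 FPKM or more were tested in R 4.3.3 with limma 3.58.1 (empirical Bayes with trend) on log2(FPKM + 1), which understates changes of low genes. A single fit of 8 group means over 16 libraries left 8 residual degrees of freedom, with 3.15 prior ones. Benjamini-Hochberg adjustment ran over all genes tested within each of 19 comparisons, of which 14 were planned, and an adjusted p under 0.05 was called. The 3 comparisons averaged over 4 backgrounds, 2 of p53 siRNA in cells with iASPP siRNA, the averaging of close pairs and the fit without the replicate 1 libraries of the diverging pairs were added after seeing the data. An exact test of 2 against 2 libraries cannot go below p = 0.333 and was not used. The procedure was tested on simulated data. Values were handled in Python 3.11.15 with pandas 2.3.3 and numpy 2.4.6.

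The members and gene lists were chosen with earlier results of these data known. All 9 members are named. From each list the 3 called genes with the largest change are eligible in a comparison, or the 2 with the smallest p where none passed, likeness names up to 3 genes per member, and NME1 was named outside this rule for nutlin. Of these the report prints examples. The 5 listed transcripts of the MYC locus were not analysed here, and the level of 1 siRNA target gene is not reported here. PRELID1, RAB24, PSMC3IP and SNRNP27 were added for their shared exons. Positions are from GENCODE release 29, and promoters are RefSeq sequences on GRCh38.p14.

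Same-numbered replicates deviated together with correlations of -0.03 to 0.30 over 28 pairs of groups, 3 of them over 0.1, so the numbers were not taken to pair the samples. Alternatives were a pseudocount of 0.1, no filter, median-of-ratios scaling, a replicate block, leaving out each library, leaving out the replicate 2 or the replicate 1 libraries of the 3 diverging pairs, and averaging close pairs.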

Additional observations from a re-analysis of the deposited data

Results flagged for a closer look

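The test of whether nutlin acted differently on MXD3 in cells with p53 siRNA and with CTR siRNA passed its threshold. The interaction was 1.42 ± 0.40 on the log2(FPKM + 1) scale (limma, adjusted p = 0.0455). MXD3 went from a mean of 6.68 to 0.763 FPKM with CTR siRNA and from 7.77 to 4.4 FPKM with p53 siRNA. Each of the 8 libraries, when left out, took the call past the threshold, with adjusted p of 0.0545 to 0.156. The call was also lost with the replicate block (adjusted p = 0.0552), with median-of-ratios scaling (0.0700), with no filter (0.0914), without the replicate 1 or the replicate 2 libraries of the 3 diverging pairs (0.0692 and 0.10) and with close pairs averaged (0.597), and it was kept with a pseudocount of 0.1 (0.0202).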

How the results depend on the processing

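No change of a member turned its direction past the threshold under any alternative, and the causes of the moves below were not tested unless stated. Counts are members called of those tested. The share of all genes called in each alternative fit is not printed here. In fits that leave out or average libraries the spread estimate changed for all genes. The counts alone are therefore not a result about the members. With a pseudocount of 0.1 nutlin in iASPP siRNA called 1, which was MXD3 (-1.49, adjusted p = 0.0382). With no filter the interaction of nutlin and p53 siRNA called 0 (MXD3 adjusted p = 0.0914), as did p53 siRNA in cells with iASPP siRNA without nutlin and iASPP siRNA averaged over backgrounds. With median-of-ratios scaling nutlin in CTR siRNA called 2, iASPP siRNA in p53-depleted cells without nutlin 1, the interaction of nutlin and p53 siRNA 0 (MXD3 1.30, adjusted p = 0.0700), p53 siRNA averaged over backgrounds 4 and nutlin averaged 3 (with MXI1, 0.43, adjusted p = 0.0302). That scaling moved the median of all genes by 0.21 for nutlin in CTR siRNA, -0.19 for p53 siRNA with nutlin and for the interaction of nutlin and p53 siRNA, -0.17 for that of nutlin and iASPP siRNA and 0.11 for that of p53 and iASPP siRNA with nutlin. With the replicate block iASPP siRNA without nutlin called 1 (MXI1 -0.98, adjusted p = 0.0407) and the interaction of nutlin and p53 siRNA 0 (MXD3 1.42, adjusted p = 0.0552), and no other call changed under the block.

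Without the replicate 2 libraries of the 3 diverging pairs the spread came from the 5 close pairs alone. Nutlin called 2 in CTR siRNA, 1 in p53 siRNA, 2 in iASPP siRNA and 1 in p53+iASPP siRNA. p53 siRNA called 2 without nutlin, 3 with it, 2 and 5 in cells with iASPP siRNA without and with nutlin, and 4 averaged over backgrounds. iASPP siRNA called 3 without nutlin, 3 in p53-depleted cells, 2 with nutlin and 2 in p53-depleted cells with nutlin. The interactions called 2 (nutlin and p53 siRNA), 3 (nutlin and iASPP siRNA), 2 (p53 and iASPP siRNA without nutlin) and 1 (with nutlin). Without their replicate 1 libraries instead, nutlin called 2 in CTR siRNA, 2 in p53 siRNA, 1 in iASPP siRNA, 1 in p53+iASPP siRNA and 5 averaged. p53 siRNA then called 2 without nutlin, and in cells with iASPP siRNA 2 without nutlin and 0 with it. iASPP siRNA called 3 without nutlin, 3 in p53-depleted cells without nutlin and 1 with nutlin, and the interactions called 2 (nutlin and p53 siRNA), 1 (nutlin and iASPP siRNA) and 2 (p53 and iASPP siRNA without nutlin). With close pairs averaged the spread came from the 3 diverging pairs alone, and 0 members were called for nutlin in CTR siRNA, p53 siRNA with nutlin, p53 siRNA in cells with iASPP siRNA without and with nutlin, the interaction of nutlin and p53 siRNA, and iASPP siRNA and nutlin averaged over backgrounds. With 1 library left out the lone library of its group was assumed to vary like the other groups. Counts then ran from 0 to 0 for the interaction of nutlin and p53 siRNA and for p53 siRNA in cells with iASPP siRNA without nutlin, 1 to 4 for the latter with nutlin, 0 to 1 for nutlin in iASPP siRNA, iASPP siRNA with nutlin and the interaction of p53 and iASPP siRNA with nutlin, 2 to 4 for p53 siRNA and for nutlin averaged over backgrounds and 0 to 2 for iASPP siRNA averaged. They were 1 to 1 for nutlin in CTR siRNA and p53 siRNA with nutlin. Depth limits MYCL and MXD1 most, and no absolute depth is known.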
